A study of Mus musculus with 4 samples.

Results

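A set of 8 genes of the red cell membrane and its supporting skeleton was followed through every probe set of the array whose platform gene symbol names one of them. The genes were Sptb, Ank1, Epb41, Epb42, Slc4a1, Rhag, Ermap and Kel. They were named by 14 of the 45101 probe sets, with 4 for Ank1, 3 for Slc4a1, 2 each for Sptb and Epb42, and 1 each for Rhag, Ermap and Kel. Epb41, which encodes protein 4.1 of the spectrin and actin junctions, is named by none of the probe sets used here and was not analysed.

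The study measured bone marrow of C57BL/6J mice on 4 single-colour arrays, 2 per group, which its design text calls biological replicates. The MN1 leukemic group was marrow of mice with leukemia started by retroviral MN1, a transcriptional coregulator. The donor marrow had been taken 4 days after 150 mg/kg of fluorouracil, kept for 48 hours with interleukin-6, interleukin-3 and stem cell factor, transduced, sorted for the green fluorescent marker of the virus and injected into recipients irradiated with 750 cGy together with normal marrow cells. The labels name no sort when the leukemic marrow was harvested, so it can hold normal marrow cells of the recipient or of the helper graft. The Gr1/Mac1 group was mature myeloid marrow cells of healthy mice, positive for Gr1 and CD11b, which are surface antigens of granulocytes and monocytes. The arrays include neither normal red cell precursors nor other normal immature cells, so leukemia cannot be told apart from the lineage or stage of the cells.

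The red cell carries a lipid membrane stretched over a mesh of spectrin tetramers that meet at short actin filaments. Ankyrin ties the mesh to the anion exchanger band 3, protein 4.2 steadies that tie, and protein 4.1 anchors the mesh at the actin junctions. Rh proteins, Kell and other blood group antigens sit in complexes with these anchors. The genes are switched on stepwise as erythroid progenitors become erythroblasts, and their regulation by GATA1 and KLF1 is well known. Loss of spectrin, ankyrin, band 3 or protein 4.2 in mice or humans gives fragile, rounded red cells.

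Because most of these genes moved in the same direction, the sequence upstream of each start is shown for the 5 measured genes with an entry in the RefSeq promoter table of build GRCm38.p6. Each run holds the 250 bases before the start that the table uses, 5′ to 3′ on the strand of the gene. The intervals are chr6:41704326-41704575 (minus strand) for Kel, chr4:119189996-119190245 (minus) for Ermap, chr17:40810899-40811148 (plus) for Rhag, chr2:121036878-121037127 (minus) for Epb42 and chr12:76710548-76710797 (minus) for Sptb. Capitals mark GATAA, the core letters bound by GATA factors, or TTATC, the same letters on the other strand.
Kel: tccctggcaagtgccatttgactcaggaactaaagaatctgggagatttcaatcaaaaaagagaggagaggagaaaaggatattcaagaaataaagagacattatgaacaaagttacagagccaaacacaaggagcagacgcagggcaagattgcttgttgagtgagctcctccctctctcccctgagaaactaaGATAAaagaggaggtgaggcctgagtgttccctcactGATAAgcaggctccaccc
Ermap: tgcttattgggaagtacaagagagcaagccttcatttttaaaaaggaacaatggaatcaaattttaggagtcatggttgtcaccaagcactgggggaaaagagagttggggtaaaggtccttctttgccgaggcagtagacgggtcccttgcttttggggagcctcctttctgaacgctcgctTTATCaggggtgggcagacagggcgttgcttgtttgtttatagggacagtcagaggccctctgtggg
Rhag: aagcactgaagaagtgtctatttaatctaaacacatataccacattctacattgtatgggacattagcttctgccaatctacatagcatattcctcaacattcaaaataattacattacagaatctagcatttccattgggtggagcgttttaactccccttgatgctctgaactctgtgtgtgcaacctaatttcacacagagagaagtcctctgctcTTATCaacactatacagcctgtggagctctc
Epb42: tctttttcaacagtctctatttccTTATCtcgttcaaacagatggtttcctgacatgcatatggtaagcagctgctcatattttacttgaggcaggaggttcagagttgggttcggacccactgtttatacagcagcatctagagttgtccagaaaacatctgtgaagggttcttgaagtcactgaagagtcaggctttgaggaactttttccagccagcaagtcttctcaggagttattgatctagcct
Sptb: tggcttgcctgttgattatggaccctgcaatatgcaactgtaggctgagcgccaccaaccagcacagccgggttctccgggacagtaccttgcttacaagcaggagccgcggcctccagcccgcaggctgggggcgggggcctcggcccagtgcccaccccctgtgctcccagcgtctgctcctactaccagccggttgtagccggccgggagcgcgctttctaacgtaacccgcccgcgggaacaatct
Kel held 2 matches, beginning 55 and 18 bases before its start. Ermap held 1 that began 67 bases before the start, Rhag 1 at 31 bases and Epb42 1 at 226 bases, while Sptb held none. Of all 32851 promoter entries, 22.6% held GATAA on either strand of the same 250 bases. The letters CCNCNCCC, a shape bound by KLF factors, were found on either strand in Sptb at 3 positions, 2 of them overlapping, and in none of the other 4 printed runs, against 45.9% of all entries. A match of letters is a description of the sequence and not a bound site.

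Levels are MAS5 signals, which are linear intensities from arrays that the authors had scaled to 1 target. Fold changes are differences of log2(signal + 16), leukemic minus mature. The added 16 makes changes of dim genes smaller than the log2 ratios of their signals alone. The test was limma with Benjamini-Hochberg adjustment over 27022 probe sets and a threshold of 0.05. Probe sets entered the test by their mean signal over all 4 arrays, at or above 47.6, which 11 of the 14 did. A gene that is bright in leukemic marrow alone can enter this way and then has to differ, so the counts over these 11 are descriptions. Precision is limited by having 2 arrays per group, and a lower signal from fewer cells of a type cannot be told apart from less RNA per cell.

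Of the 11 tested probe sets, 9 were called higher in leukemic marrow and 0 lower, where 34.9% of all tested probe sets were called in either direction, 21.2% higher and 13.6% lower. At an unadjusted p under 0.05 the same limma test gave 11 higher and 0 lower, beside 27.5% higher and 17.8% lower of all tested probe sets. All 11 had both leukemic arrays above both mature arrays, as did 41.4% of all tested probe sets. Without leukemic replicate 2 the count fell to 4, beside 7.38% of all probe sets, and with arrays scaled to spiked hybridization controls it was also 4, beside 6.55%. With no filter on low signals 7 of the 14 probe sets were called higher, beside 10.7%. The median log2 fold change of the 11 was 2.58, beside 0.19 over all tested probe sets, and they ran from 1.22 to 6.54. The 3 highest values were those of Ermap, Rhag and Kel, and the 2 lowest those of Sptb, with the order of the probe sets not tested.

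**Figure D1:**
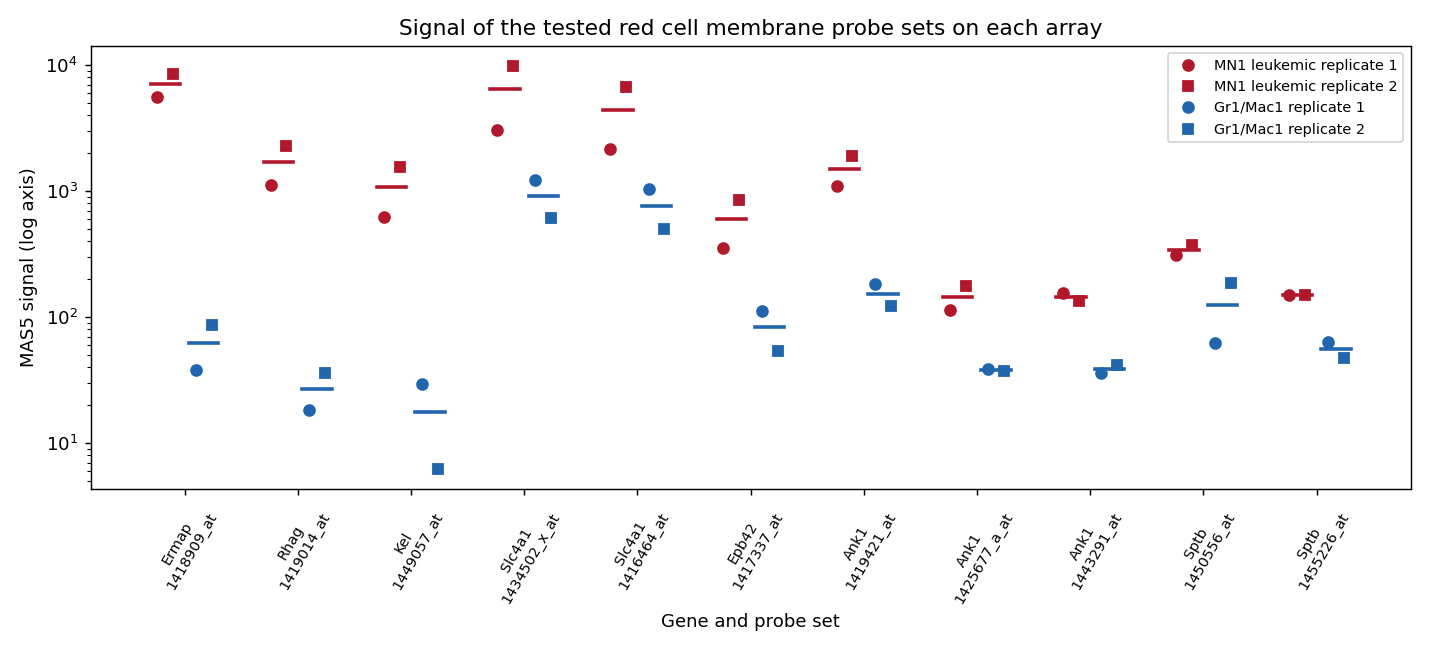
MAS5 signal on a log axis for each of the 11 tested probe sets, with MN1 leukemic arrays in red left of Gr1/Mac1 arrays in blue. Circles are replicate 1, squares replicate 2 and short lines the group means (n = 2). Both leukemic arrays lie above both mature arrays in every probe set drawn, with the widest gap for Ermap, at 5638 and 8529 against 38.4 and 86.5.

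Ermap encodes a butyrophilin-like protein of the erythroid membrane that carries the Scianna blood group antigens in humans. Its only probe set read 5638 and 8529 in the leukemic arrays, against 38.4 and 86.5 in the mature arrays. The groups were far apart and both mature arrays were dim. Ermap rose by 6.54 on the log2 scale (SE 0.38, limma adjusted p = 2.3e-04).

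Rhag encodes the Rh-associated glycoprotein, which Rh antigens need to reach the surface and which conducts ammonia. It read 1111 and 2293 in leukemic marrow, against 18.2 and 35.9 in mature cells. In both groups the second replicate was the higher, and the groups did not overlap. The log2 fold change was 5.26 (SE 0.44, limma adjusted p = 5.9e-04).

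Kel encodes the Kell glycoprotein, a zinc endopeptidase that carries the Kell antigens and is held next to the transport protein XK. It read 624 and 1546 in leukemic marrow, against 29.2 and 6.23 in mature cells. Leukemic replicate 2 was the highest array and mature replicate 2 the lowest. Kel rose by 4.98 (SE 0.56, limma adjusted p = 0.0013). Without a filter on low signals, Ermap, Rhag and Kel also passed.

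Slc4a1 encodes band 3, the chloride and bicarbonate exchanger that is the main anchor of the membrane. Its brightest probe set, 1434502_x_at, read 3038 and 9841 in leukemic marrow, against 1221 and 611 in mature cells. The leukemic replicates were further apart than those of Ermap, and the mature signals were far from the bottom of the scale. The log2 fold change was 2.64 (SE 0.57, limma adjusted p = 0.012). The next probe set, 1416464_at, read 2175 and 6706 in leukemic marrow, against 1039 and 500.4 in mature cells, with a log2 fold change of 2.38 (SE 0.56, limma adjusted p = 0.016). The arrays stood in the same order in both probe sets. The last, 1431743_a_at, read 4.42 and 13.8 in leukemic marrow, against 3.63 and 4.20 in mature cells, and was too dim to be tested.

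Both Slc4a1 calls were lost without leukemic replicate 2, when the log2 fold changes were 1.79 (adjusted p = 0.054) and 1.57 (adjusted p = 0.085). Scaling the arrays to the hybridization controls also ended both calls, at 1.32 (adjusted p = 0.092) and 1.06 (adjusted p = 0.15). The dimmer of these probe sets also missed the threshold without mature replicate 2 (1.86, adjusted p = 0.064).

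Epb42 encodes protein 4.2, a relative of the transglutaminases that lacks their enzyme activity and binds band 3. Its brighter probe set, 1417337_at, read 354 and 848 in leukemic marrow, against 112 and 54.1 in mature cells. As with Slc4a1, leukemic replicate 2 was the highest array and mature replicate 2 the lowest. It rose by 2.58 (SE 0.51, limma adjusted p = 0.0085). The other, 1417338_at, read 16.2 and 111 in leukemic marrow, against 39.3 and 14.9 in mature cells, so the groups overlapped, and its mean of 45.4 lay just under the filter. Without leukemic replicate 2 the brighter probe set was at 1.97 (adjusted p = 0.084), and with arrays scaled to the hybridization controls at 1.37 (adjusted p = 0.061).

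Ank1 encodes ankyrin-1, the adaptor between band 3 and beta spectrin, and its 4 probe sets did not move by the same amount. The brightest, 1419421_at, read 1105 and 1889 in leukemic marrow, against 183 and 122 in mature cells, and rose by 3.14 (SE 0.36, limma adjusted p = 0.0014). The groups were well separated. The probe set 1425677_a_at read 114 and 178 in leukemic marrow, against 38.7 and 37.1 in mature cells, with 1.56 (SE 0.45, adjusted p = 0.035). The probe set 1443291_at read 154 and 133 in leukemic marrow, against 35.9 and 41.5 in mature cells, with 1.55 (SE 0.43, adjusted p = 0.030). Both of these dimmer probe sets were higher on each leukemic array than on either mature array, but each lost its call without either leukemic replicate, the first at 1.85 (adjusted p = 0.0996) without replicate 1 and 1.27 (0.27) without replicate 2, the other at 1.45 (0.19) and 1.64 (0.16). The first also missed the threshold without mature replicate 2 (1.54, adjusted p = 0.0501). Without a filter they were at adjusted p = 0.086 and 0.077, and with arrays scaled to the hybridization controls at 0.48 (adjusted p = 0.40) and 0.46 (adjusted p = 0.39). Giving all arrays the same median also ended both calls (adjusted p = 0.064 and 0.052), as quantile normalization did for the first (adjusted p = 0.062). The last, 1452512_a_at, read 13.5 and 4.55 in leukemic marrow, against 55.3 and 5.495 in mature cells, and was too dim to be tested. Its groups overlapped. Nothing used here states which Ank1 transcripts each probe set reads.

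Sptb encodes beta spectrin, a main part of the mesh, and neither of its probe sets passed. The brighter, 1450556_at, read 309 and 372 in leukemic marrow, against 61.8 and 187 in mature cells, with a log2 fold change of 1.498 (SE 0.50, limma adjusted p = 0.054). The other, 1455226_at, read 150.3 and 149 in leukemic marrow, against 63.5 and 47.5 in mature cells, with 1.22 (SE 0.41, limma adjusted p = 0.057). Both leukemic arrays were above both mature arrays in each probe set, so the values leaned the same way as those of the other genes. In the brighter probe set the mature replicates were further apart than the leukemic ones. It passed under 5 of 18 processing alternatives and the dimmer one under 3 of 15. Without mature replicate 2 the brighter was at 2.19 (adjusted p = 0.0063), without mature replicate 1 at 0.81 (adjusted p = 0.094), and with the mean of the probe sets of the gene at 1.36 (adjusted p = 0.018). The dimmer one passed without mature replicate 1 (1.38, adjusted p = 0.048) but not without mature replicate 2 (1.06, adjusted p = 0.085). With arrays scaled to the hybridization controls they were at 0.28 (adjusted p = 0.66) and 0.10 (adjusted p = 0.86).

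**Figure D2:**
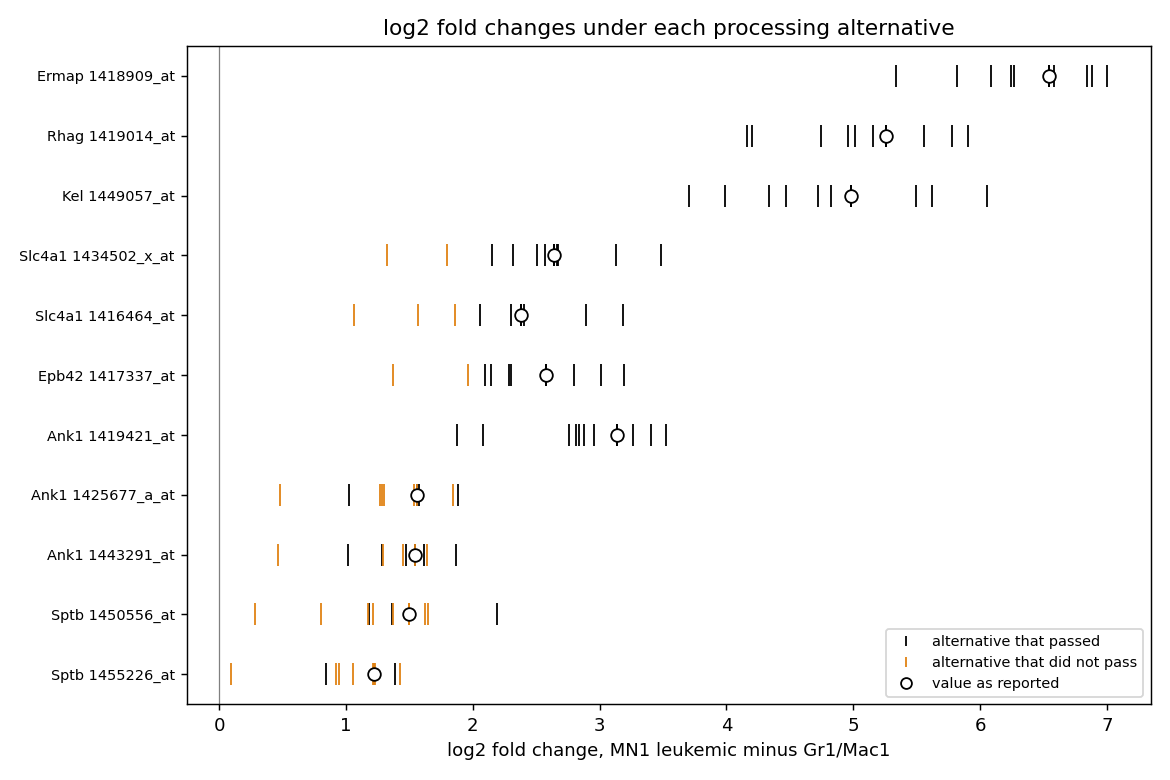
The log2 fold change (MN1 leukemic minus Gr1/Mac1) of each tested probe set as reported (open circles) and under each processing alternative (vertical ticks, black where the adjusted p passed and orange where it did not). Ermap, Rhag, Kel and the brightest Ank1 probe set passed under every alternative drawn, while the 2 Sptb probe sets ran down to 0.28 and 0.10.

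The Slc4a1, Epb42, Kel and Rhag probe sets also differed between the leukemic replicates. Replicate 2 minus replicate 1 was 1.69 and 1.62 on the log2 scale for Slc4a1, 1.29 for Kel, 1.22 for Epb42 and 1.03 for Rhag. Over all tested probe sets the median of this difference was 0.01, and the 5th to 95th percentile ran from -1.02 to 0.84. Leukemic replicate 2 was the higher in 9 of the 11 tested probe sets and in 50.6% of all tested ones. In mature cells Kel (-1.02), Slc4a1 (-0.98 and -1.03), Epb42 (-0.86) and the brightest Ank1 probe set (-0.52) were lower in replicate 2. Ermap (0.91), Rhag (0.60) and the brighter Sptb probe set (1.39) were higher in it. Mature replicate 2 was the higher in 4 of the 11 tested probe sets and in 15172 of all 27022. With 2 arrays per group these differences have no test.

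**Figure D3:**
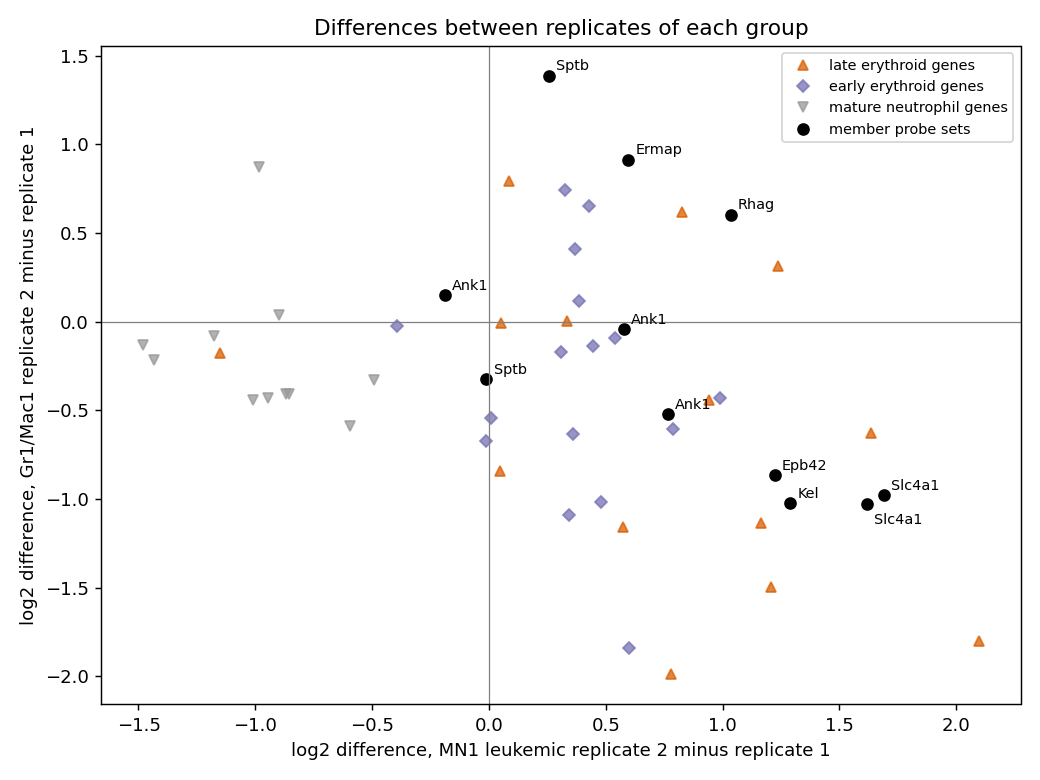
Each point is a probe set, with the log2 difference between replicates (2 minus 1) of MN1 leukemic marrow on the horizontal axis and of Gr1/Mac1 cells on the vertical axis. The probe sets of Slc4a1, Kel and Epb42 lie at the lower right, with the Ank1 probe set 1419421_at (0.77 and -0.52). Several late erythroid genes lie there, such as Tmcc2 (2.10 and -1.80). Several early erythroid genes, such as Blvrb (0.60 and -1.84) and Tal1 (0.48 and -1.02), lie there too. All 11 mature neutrophil genes lie left of 0.

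Markers of cell types were read beside these results, each gene from its brightest tested probe set, a reading in which 26.1% of 12378 genes were called higher and 15% lower. Genes of early erythroid cells were higher in leukemic marrow in 15 of 16 cases and lower in 1, with a median log2 fold change of 4.86. Among them were the carbonic anhydrase gene Car1 (8.31), the erythroid transcription factor gene Klf1 (6.82), Mfsd2b (6.59) and Gata2 (5.95, a factor of early progenitors and mast cells), while the factor gene Nfe2 fell (-1.54). Their summed signal was 122659 and 142297 in leukemic marrow, against 24897 and 17953 in mature cells. Mast cell and basophil genes, given below, had a median log2 fold change of 4.57, beside 4.86 for these early erythroid genes.

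Genes of late erythroid cells did not move one way. Of 14 tested, 4 were higher, 2 lower and 8 did not pass, with a median of 0.20. The genes Hemgn (4.77), Tmcc2 (3.99), Tspo2 (3.77) and the peroxiredoxin gene Prdx2 (3.08) rose, and the alpha globin gene Hba-a2 (-1.28) and the mitochondrial iron importer gene Slc25a37 (-1.18) fell. Their summed signal was 56979 and 78132 in leukemic marrow, against 48327 and 37503 in mature cells. None of the globin probe sets read here was near 0 in either group. Hbb-b2 read 436 and 851 in leukemic marrow, against 520 and 379 in mature cells. A probe set shared by the beta globin genes read 50206 and 44712 in leukemic marrow, against 43246 and 33493 in mature cells. Hba-a2 was read from a dimmer probe set, at 975 and 430 against 1699 and 1503. Brighter probe sets shared by the alpha globin genes differed in direction. One was higher in leukemic marrow, at 47191 and 45878 against 39928 and 33722. In another the groups overlapped, at 38544 and 45264 against 45578 and 35492. The dimmest of these was lower, at 5518 and 10187 against 22339 and 10813. Alas2, which makes the first enzyme of heme synthesis in red cells, read 1354 and 3152 in leukemic marrow, against 6164 and 2176 in mature cells. In Alas2 and several but not all other late erythroid genes, leukemic replicate 2 was above replicate 1 and mature replicate 2 below replicate 1. The tested probe sets of Slc4a1, Kel and Epb42 and the Ank1 probe sets 1419421_at and 1425677_a_at stood in this order. So did early erythroid genes such as Tal1 and mast cell genes such as Cpa3. The other tested probe sets of the 8 genes did not, and the share of all genes in this order was not counted. Median log2 differences (2 minus 1) of late erythroid genes were 0.80 in leukemic marrow and -0.54 in mature cells. Early erythroid genes had 0.38 and -0.30, and mast cell and basophil genes 0.44 and -0.65. Over all tested probe sets they were 0.01 and 0.10. Signal of the shared globin probe sets was thus bright in both groups, and the part of red cell RNA in the results was not tested.

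Genes of other cell types were read in the same way, where 26.1% of all genes were called higher and 15% lower. Mature neutrophil genes were lower in 5 of 11 cases and higher in 0 (limma, with the same counts at an unadjusted p under 0.05). The largest fall was that of Itgam, which encodes the CD11b of the gate. It read 584 and 306 in leukemic marrow, against 4288 and 4407 in mature cells. Ngp (0.42), S100a8 (0.30), S100a9 (0.21), Camp (0.03), Ltf (-0.34) and Lcn2 (-0.34) did not pass and were bright in both groups. The summed signal of the 11 genes was 455938 and 262495 in leukemic marrow, against 458439 and 361742 in mature cells. Leukemic replicate 2 was the lower in all 11. Mast cell and basophil genes were higher in 5 of the 5 tested, out of 8 on the array. The summed signal of these 8 was 45391 and 59260 in leukemic marrow, against 586 and 357 in mature cells. As with the probe sets above, genes bright in leukemic marrow alone can enter the test and then have to differ. The counts of these lists are therefore descriptions. Megakaryocyte genes were higher in 4 and lower in 1 of 10. Among B and plasma cell genes 1 of 5 was lower, among T and NK cell genes 1 of 2 was lower, and of the 4 genes of stroma and endothelium 0 were called by limma, also at an unadjusted p under 0.05. Their part in the results was not tested. Measures of RNA and hybridization also differed between the groups. For beta-actin the probe set at the 3′ end over that at the 5′ end gave a ratio of 3.28 and 3.09 in leukemic marrow, against 1.32 and 1.39 in mature cells. The 18 probe sets of the hybridization controls had a geometric mean signal of 11918 and 8949.8 in leukemic marrow, against 4044 and 4167 in mature cells. The part of RNA quality in the results was not tested.

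Among other genes of the red cell membrane, most of those that changed were higher in leukemic marrow. Of 33 tested, 19 were higher, 4 lower and 10 did not pass, with a median log2 fold change of 1.63. Over all genes read from 1 probe set 41.1% were called in either direction. The water channel gene Aqp1 read 5523 and 6043 in leukemic marrow, against 38.5 and 91.6 in mature cells (6.24, limma adjusted p = 2.3e-04). The sodium pump subunit gene Atp1b2 was higher by 5.46 and the lactate transporter gene Slc16a1 by 5.39. Rhd, whose product forms the Rh complex with that of Rhag, read 2985 and 4902 in leukemic marrow, against 120 and 53.7 in mature cells (5.30, adjusted p = 4.7e-04). The adducin gene Add3 (-2.12) and the hyaluronan receptor gene Cd44 (-1.57) fell. Without leukemic replicate 2 fewer of these genes passed, as did fewer of all tested probe sets. With arrays scaled to the hybridization controls 11 of these genes were higher and 10 lower. In that setting 1771 of all 27022 tested probe sets were called higher and 12631 lower.

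Among those 33 genes were 10 whose products belong to the actin junctions of the skeleton, grouped after their values were seen and given as values alone. The beta adducin gene Add2, whose product caps actin in red cells, read 377 and 766 in leukemic marrow, against 35.8 and 30.4 in mature cells (3.50, adjusted p = 0.0019). The tropomyosin gene Tpm1 rose by 1.97 (adjusted p = 0.0055) and the tropomodulin gene Tmod1, whose product caps the other end of the filaments, by 1.53 (adjusted p = 0.0089). The dematin gene Dmtn (0.50, adjusted p = 0.30), the actin gene Actb (0.15, adjusted p = 0.74), the scaffold gene Mpp1 (-0.23, adjusted p = 0.52) and the alpha adducin gene Add1 (-0.41, adjusted p = 0.23) did not pass. The tropomodulin gene Tmod3 (-1.16), the tropomyosin gene Tpm3 (-1.16) and Add3, given above, fell.

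**Figure D4:**
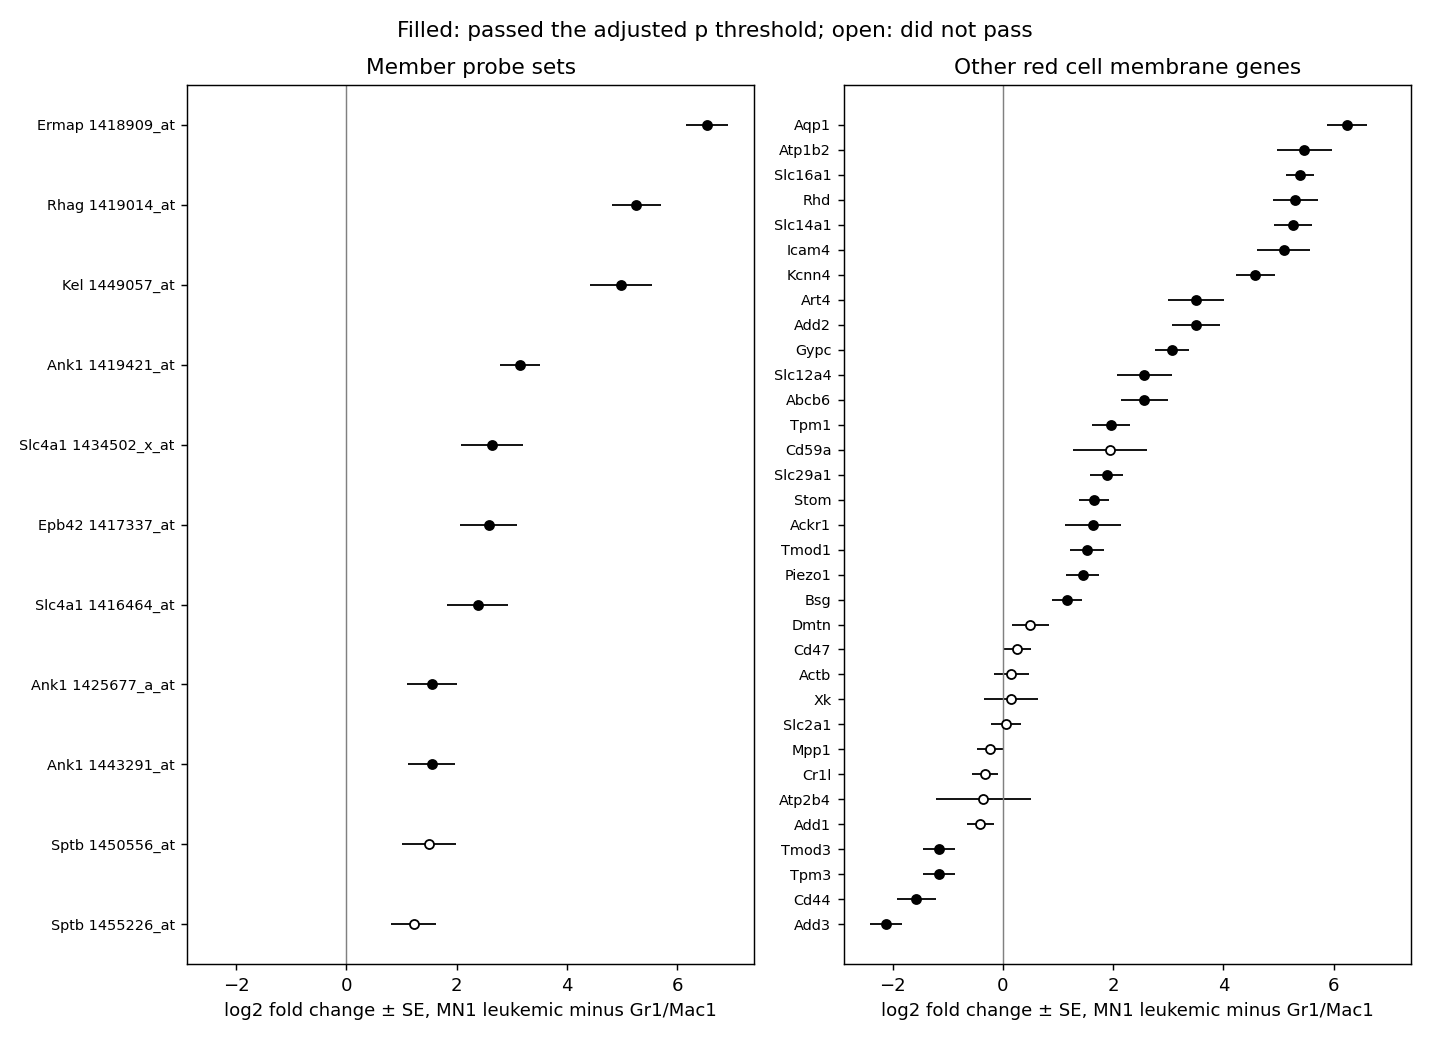
The log2 fold change with its SE (MN1 leukemic minus Gr1/Mac1, 2 arrays each) for the 11 tested probe sets of the 7 measured genes on the left and the 33 other red cell membrane genes on the right. Filled points passed the adjusted p threshold and open points did not. Of the points on the right, 19 filled ones lie above 0 and 4 below, from Aqp1 at 6.24 to Add3 at -2.12.

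Relatives of the 8 genes that serve other tissues moved in both directions. Of 18 tested, 4 were higher, 2 lower and 12 did not pass, so that 33.3% were called, beside 41.1% of all genes, with a median of -0.05. The butyrophilin gene Btn1a1, a relative of Ermap, read 542 and 730.4 in leukemic marrow, against 37.4 and 54.2 in mature cells (3.40, adjusted p = 0.0011). The ankyrin gene Ank3 rose by 3.25 (adjusted p = 0.0036), the protein 4.1 relative Epb41l5 by 2.99 and Ece2, a zinc endopeptidase related to Kell, by 1.87. The transglutaminase genes Tgm3 (-2.92) and Tgm2 (-1.965), relatives of Epb42, fell. The spectrins of other tissues, Sptan1 (-0.47, adjusted p = 0.15) and Sptbn1 (-0.22, adjusted p = 0.54), did not pass.

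The genes whose values over the 4 arrays lay nearest to those of Ermap and Rhag, the genes with the largest log2 fold changes as reported, were found by Euclidean distance of log2 values, each centred on its own mean. Nearest to Ermap were Klf1 (distance 0.36), the adhesion receptor gene Adgrg1 (0.39) and Aqp1 (0.45). Nearest to Rhag were the monoamine transporter gene Slc18a2 (0.21), Ociad2 (0.27) and Clca3a1 (0.31). Slc18a2 read 1166 and 2236 in leukemic marrow, against 23.2 and 45.0 in mature cells. Kel ranked above Rhag with a pseudocount of 1 (6.06 and 5.91) and without mature replicate 1 (5.49 and 4.96). These distances rest on 4 arrays in 2 groups and describe the likeness of the values alone.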

How the data were processed

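The 4 arrays carried biotin-labelled total RNA extracted with Trizol, per the labels' protocols. The authors deposited MAS5 signals, which are intensities on a linear scale, and the submitters' processing notes name GCOS 1.3.0. Their mean after trimming 2% at each end was 500.0 on every array, so the authors had scaled them before deposit. No source used here states the scale target or the detection calls.

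Probe sets were named by the platform's annotation, whose symbols may be outdated. The 64 control probe sets and the 40% with the lowest mean signal were left out, and log2(signal + 16) of the other 27022 was compared with limma 3.58.1 in R 4.3.3 (variance trend, two-sided, 2 residual degrees of freedom). Each probe set was tested, and genes of the lists were read from their brightest tested probe set. In simulated data of 27022 probe sets, 200 of them changed, the test recovered 63% of 4-fold and 100% of 16-fold changes, with 9 false calls. In the real data 34.9% of probe sets were called, so the recovered shares need not hold there.

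The 8 genes, the lists (other red cell membrane genes, relatives, and 8 cell type lists) and the tests were chosen with earlier results of these data known. Named were all probe sets of the 8 genes, in each list up to 4 called genes of the more frequent direction and up to 2 of the other, and the 3 genes nearest to the 2 genes with the largest changes. Further named genes were chosen after their values were seen. Alternatives were pseudocounts of 1 and 64, no filter and the lowest 60% left out, 3 scalings, gene-level readings, no probe sets with the suffixes _x_at, _s_at and _a_at, other variance models, a replicate block, a minimum of 2-fold and leaving out each array. Figures were drawn with matplotlib 3.10.9.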

Additional observations from a re-analysis of the deposited data

How the results depend on the processing

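Of the 11 tested probe sets of the 7 measured genes, none changed sign under any alternative run. Ermap (log2 fold change 5.34 to 6.998), Rhag (4.16 to 5.91), Kel (3.70 to 6.06) and the brightest Ank1 probe set (1.87 to 3.52) also passed under all of them. The count of probe sets of these genes called higher was 9, and only 4 when the mean factor of each group scaled its arrays to the hybridization controls, where 6.55% of all probe sets were called higher and the median over all of them moved to -1.01, from 0.19. It ran from 4 to 10 with 1 array left out, with the lowest count without leukemic replicate 2. Without any filter 7 of 14 were called higher, where 10.7% of all probe sets were. The cause of these losses was not tested. The count over the whole table was 9428, and it was 14402 with the hybridization controls (1771 higher and 12631 lower), 5375 with 1 probe set per gene and 5276 with the mean of the probe sets of a gene, both of which test fewer features. With 1 array left out it ran from 3470 to 10232, again lowest without leukemic replicate 2, and without leukemic replicate 1 it was 5219. Giving all arrays the same median left 3900 higher and 4727 lower, and quantile normalization 4826 and 4519, against 5742 and 3686 as reported. The count of other red cell membrane genes called was 23 and ran from 13 to 23 with 1 array left out. The replicate numbers 1 and 2 occur in both groups and no label pairs them, and the deviations of same-numbered arrays had a correlation of -0.04 across probe sets. With a replicate block 9822 probe sets were called in all, and 10 of these genes' probe sets were called higher. A group left with a single array took its spread from the other group. The depth of signal limits the 3 dim probe sets, whose means lay between 6.52 and 45.4.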
